A study of Mus musculus with 15 samples.

Results

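Ppara, Pex11a, Acaa2 and Gpi1 take part in the use of fatty acids and glucose as fuel, and their levels were followed here in the mouse striatum after a brain hemorrhage. The genes were chosen by name: each has a probe whose accession is a RefSeq transcript of that gene. They are 4 of the 46 genes that the scanner files name in this way, on an array with 51669 tested probes. RNA of the ipsilateral striatum of male mice had been hybridised to 15 Agilent arrays, 5 for each of 3 groups, and tissue was taken at day 14. Sham mice, and those with an intracerebral hemorrhage (ICH, a bleed within the brain), were given distilled water by gavage. The remaining group, BYHWD, received Buyang Huanwu decoction, a herbal formula of traditional Chinese medicine, by gavage at 6.19 g/kg each day. By the title of the series the decoction was a treatment of the hemorrhage. Strain, age and the way the hemorrhage was induced are not given in the sources used here. Nothing states that the 5 samples of a group came from separate mice, so the p-values reflect variation among the samples as hybridised, which may be technical. Striatal tissue holds neurons, glia, vessel cells and, after a bleed, blood-borne cells, so a change in the number of cells of a type and a change of RNA per cell cannot be told apart.

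The receptor encoded by Ppara, PPAR alpha, is a transcription factor of the nuclear receptor family that fatty acids activate. It binds DNA as a pair with a retinoid X receptor and switches on genes for the uptake and breakdown of fatty acids in mitochondria and peroxisomes. Pex11a encodes a membrane protein that drives the elongation and division of peroxisomes, and is a textbook target of this receptor in liver. Acaa2 encodes the mitochondrial thiolase that splits off acetyl-CoA at the end of each round of beta-oxidation. Gpi1 encodes glucose-6-phosphate isomerase, which turns glucose-6-phosphate into fructose-6-phosphate early in glycolysis. The brain runs mainly on glucose, and its fatty acid oxidation takes place largely in astrocytes.

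The arrays carried 3 scan identifiers in their file headers, each taken here as a slide. A slide below thus means the arrays that share a scan identifier, and it is part of every result. On slide 1 were all sham arrays together with a pair from ICH (arrays 2 and 3). The other ICH arrays (1, 4 and 5) made up slide 2, and slide 3 was BYHWD throughout. The 75th percentile of the signal ran from 420 to 540 units on slide 1, from 261 to 303 on slide 2 and from 274 to 386 on slide 3. The Gapdh control probes gave a log2 difference of the 3' over the 5' signal, a sign of RNA integrity, of 0.01 to 0.52 on slide 1, 0.61 to 0.79 on slide 2 and 0.32 to 0.60 on slide 3. For Pgk1 the same difference was 7.77 to 7.93 in BYHWD (slide 3), 7.42 to 7.85 in ICH and 7.36 to 7.69 in sham. Its mean was highest in BYHWD, and ICH overlapped both other groups. The 5' probe of Pgk1 was dim, at -2.71 to -1.43 log2 units from the array's 75th percentile. The part of these measures in the results was not tested. ICH and sham can be compared within slide 1. BYHWD shares no slide with another group, so slide and treatment cannot be told apart in its comparisons. Of the tested probes, 5.03% passed limma's test (adjusted p under 0.05) in ICH against sham, 6.13% in BYHWD against ICH and 17.3% in BYHWD against sham. Of the striatal cell markers set down for a check of the tissue, those of striatal projection neurons have no named probe, so the labelled tissue could not be checked by them.

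Each of the 4 probes was spotted 10 times per array, which gives a measure of technical error. Levels are given as the log2 signal, averaged over the spots, minus the 75th percentile of that array, so that 0 is the 75th percentile. All 10 spots of each of the 4 probes were well above background on all 15 arrays. The standard error of an array's mean over its spots had a median of 0.027 for Ppara, 0.022 for Pex11a, 0.016 for Acaa2 and 0.015 for Gpi1 in log2 units. The spread between arrays of a group (pooled SD) was 0.14 for Ppara, 0.30 for Pex11a, 0.29 for Acaa2 and 0.15 for Gpi1, which is 5.24, 13.3, 18.1 and 9.95 times that error. Differences between arrays were thus far above the error of spotting. The SD between spots differed by slide: for Pex11a its median was 0.054 on slide 1, 0.108 on slide 2 and 0.092 on slide 3, and for Gpi1 it was 0.025, 0.067 and 0.060.

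None of the 4 genes passed limma's test in any of the 3 comparisons between groups, with adjustment over all 51669 probes. In ICH against sham the log2 differences were -0.02 ± 0.11 SE for Ppara, -0.40 ± 0.18 SE for Pex11a, 0.24 ± 0.18 SE for Acaa2 and 0.22 ± 0.11 SE for Gpi1, with limma adjusted p of 0.930, 0.160, 0.389 and 0.214. In BYHWD against ICH they were -0.20 ± 0.11, 0.10 ± 0.18, -0.24 ± 0.18 and -0.13 ± 0.11 (SE), with limma adjusted p of 0.229, 0.748, 0.380 and 0.446. In BYHWD against sham they were -0.22 ± 0.11, -0.30 ± 0.18, 0.00 ± 0.18 and 0.08 ± 0.11 (SE), with limma adjusted p of 0.165, 0.259, 0.996 and 0.641. Of these 12 tests, 1 had an unadjusted p under 0.05 by limma (Pex11a in ICH against sham), and 2 did by the exact permutation test of a single gene (Ppara in BYHWD against ICH and Pex11a in BYHWD against sham). The median difference over the 4 genes was 0.0989, -0.168 and -0.112 in the 3 comparisons, beside 0.0480, 0.00206 and 0.0225 over all tested probes. Each pair of these comparisons shares the arrays of 1 group.

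**Figure D1:**
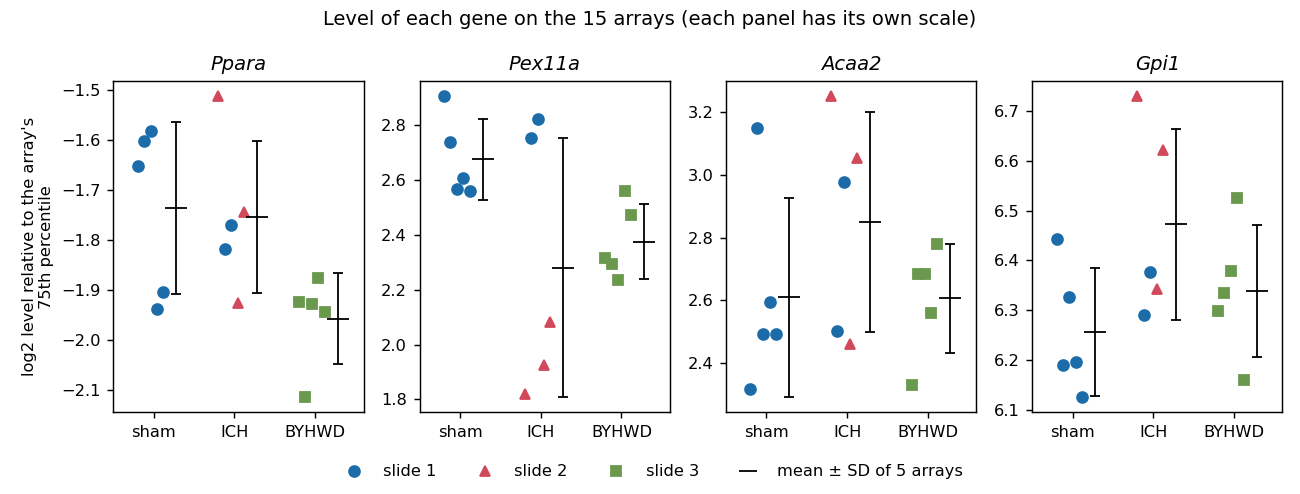
Log2 level of each gene relative to the array's 75th percentile (vertical axis, own scale per panel) on the 15 arrays by group, with colour and shape for the slide and bars for the mean ± SD of 5 arrays. The 3 ICH arrays of slide 2 sit at 1.82 to 2.08 for Pex11a, below all 12 other arrays, while the groups overlap widely for Acaa2.

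**Figure D2:**
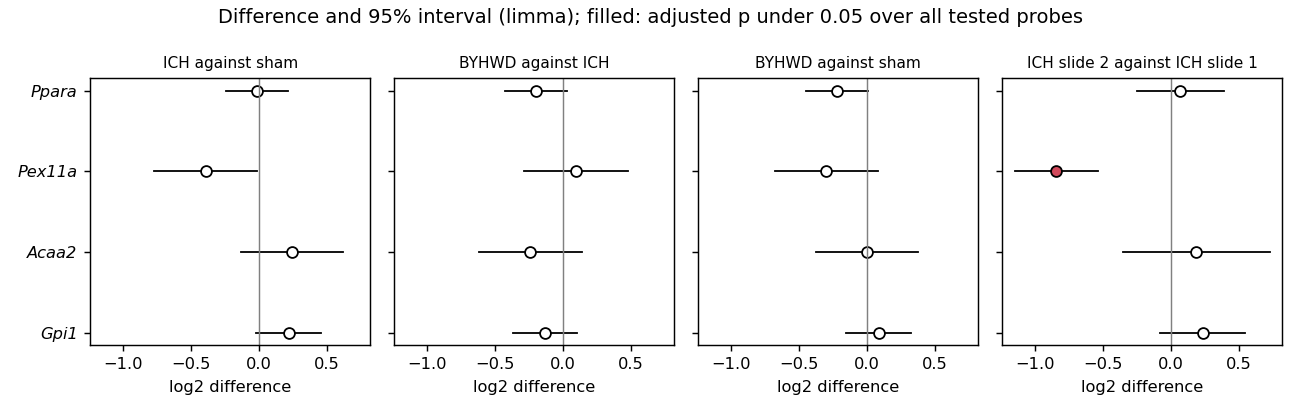
Log2 difference of each gene (horizontal axis) with its 95% interval from limma, for the 3 comparisons between groups and for ICH slide 2 against ICH slide 1. The filled point, Pex11a between the ICH slides at -0.85, is the one difference shown with an adjusted p under 0.05.

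Ppara, the receptor, had its lowest mean in BYHWD without passing the test. The size of its difference from sham depended on the background correction and scaling used together. Its sham levels were -1.65, -1.60, -1.58, -1.94 and -1.90 on arrays 1 to 5, with a mean of -1.74 ± 0.17 (SD, n = 5). The ICH levels were -1.51, -1.82, -1.77, -1.93 and -1.74, with a mean of -1.75 ± 0.15 (SD, n = 5). The BYHWD levels were -1.92, -2.11, -1.93, -1.88 and -1.94, with a mean of -1.96 ± 0.09 (SD, n = 5). BYHWD arrays thus sat at the low end, but sham 4, sham 5 and ICH 4 lay among them. The 95% interval of the difference ran from -0.25 to 0.21 for ICH against sham, from -0.43 to 0.03 for BYHWD against ICH and from -0.45 to 0.01 for BYHWD against sham. By the 2-sided exact permutation test of this gene alone, p was 0.0238 for BYHWD against ICH and 0.0635 for BYHWD against sham, unadjusted. With normexp background correction before the 75th percentile, BYHWD differed from sham by -0.020 in place of -0.22, where the median of all probes moved by 0.141. With normexp before quantile normalization, which gives all arrays the same distribution of signals, this difference was -0.17 (limma adjusted p = 0.0930). Slide 2 differed from slide 1 within ICH by 0.07 ± 0.15 SE (limma adjusted p = 0.796). With normexp this was 0.24 ± 0.11 SE before the 75th percentile (limma adjusted p = 0.0697). Before quantile normalization it was 0.05 ± 0.10 SE (limma adjusted p = 0.748). BYHWD differed by -0.16 from the ICH arrays of slide 1 and by -0.23 from those of slide 2.

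Pex11a, the peroxisome gene, was split by slide within the ICH group. Its levels in sham were 2.91, 2.74, 2.57, 2.61 and 2.56 on arrays 1 to 5, with a mean of 2.68 ± 0.15 (SD, n = 5). In ICH they were 1.82, 2.75, 2.82, 1.92 and 2.08, with a mean of 2.28 ± 0.47 (SD, n = 5). In BYHWD they were 2.32, 2.29, 2.24, 2.56 and 2.47, with a mean of 2.38 ± 0.14 (SD, n = 5). ICH 2 and ICH 3 of slide 1 lay within the sham range, the 3 ICH arrays of slide 2 lay below all other arrays, and BYHWD lay between these. The arrays of slide 2 were 0.557-fold as high as those of slide 1 within ICH (log2 difference -0.85 ± 0.14 SE, 95% interval -1.15 to -0.54, limma adjusted p = 0.000736), where 22.0% of all tested probes passed. With 3 arrays against 2, the exact permutation p was 0.1, the smallest this design can give.

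The Pex11a difference between ICH and sham depended on which slide was used. On slide 1, where both groups lay, ICH was higher by 0.11 ± 0.13 SE (limma adjusted p = 0.989), and 0.339% of all probes passed. The ICH arrays of slide 2 were lower than sham by a log2 difference of -0.73 ± 0.11 SE (limma adjusted p = 0.00018), where 36.5% of all probes passed. The pooled value of -0.40 is a mean of these, and it passed the test without ICH 2 (-0.51, limma adjusted p = 0.0483) or without ICH 3 (-0.53, limma adjusted p = 0.0376), where 20.2% and 19.1% of all probes passed.

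Against the decoction, the direction for Pex11a turned with the slide of the ICH arrays. The log2 difference of BYHWD from the ICH arrays of slide 1 was -0.41 ± 0.13 SE (limma adjusted p = 0.0711, 7.17% of all probes passing). From those of slide 2 it was 0.43 ± 0.11 SE, or 1.35-fold (limma adjusted p = 0.0118, 27.7% of all probes passing). Against sham, all 5 BYHWD arrays lay below or level with the lowest sham array: the highest BYHWD array was at 2.560 and the lowest sham array at 2.561, so the gap is smaller than the spotting error. By a strict count these groups do not overlap, which held for 16.8% of all tested probes, with BYHWD the lower group for 4.53%. The exact permutation p for this gene alone was 0.00794, the smallest that 5 against 5 arrays can give. After quantile normalization these groups overlapped, with BYHWD 5 at 11.08 and sham 5 at 11.07. The large ICH spread of this gene enters limma's pooled error. With a mean of its own for each ICH slide, a fit chosen after the values were seen, the difference of -0.30 had an SE of 0.10 and a limma adjusted p of 0.0372, where 26.2% of all probes passed. With the slide as a random block it was -0.06 ± 0.25 SE (limma adjusted p = 0.969).

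Acaa2, the mitochondrial thiolase, varied most from array to array relative to its spotting error, and the groups overlapped. Its sham levels were 2.32, 3.15, 2.49, 2.59 and 2.49 on arrays 1 to 5, with a mean of 2.61 ± 0.32 (SD, n = 5). The ICH levels were 3.25, 2.50, 2.98, 2.46 and 3.05, with a mean of 2.85 ± 0.35 (SD, n = 5). The BYHWD levels were 2.33, 2.68, 2.68, 2.56 and 2.78, with a mean of 2.61 ± 0.17 (SD, n = 5). Sham 2 alone was as high as the upper ICH arrays, and the ICH arrays fell into a lower pair and a higher trio that did not follow the slides. ICH 3 of slide 1 was high, and ICH 4 of slide 2 was low. The interval of the difference was -0.14 to 0.62 for ICH against sham, -0.62 to 0.13 for BYHWD against ICH and -0.38 to 0.37 for BYHWD against sham. Slide 2 differed from slide 1 within ICH by 0.18 ± 0.25 SE (limma adjusted p = 0.651).

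Gpi1, the glycolytic isomerase, was highest on ICH arrays of slide 2, and its groups overlapped. Its sham levels were 6.44, 6.19, 6.33, 6.20 and 6.12 on arrays 1 to 5, with a mean of 6.26 ± 0.13 (SD, n = 5). The ICH levels were 6.73, 6.29, 6.38, 6.34 and 6.62, with a mean of 6.47 ± 0.19 (SD, n = 5). The BYHWD levels were 6.30, 6.33, 6.38, 6.53 and 6.16, with a mean of 6.34 ± 0.13 (SD, n = 5). ICH 1 and ICH 5 of slide 2 were the highest of all 15 arrays, and the other ICH arrays lay among sham and BYHWD. The interval was -0.02 to 0.45 for ICH against sham, -0.37 to 0.10 for BYHWD against ICH and -0.16 to 0.32 for BYHWD against sham. Against sham, the ICH arrays of slide 1 differed by 0.08 ± 0.14 SE (limma adjusted p = 0.994) and those of slide 2 by 0.31 ± 0.12 SE (limma adjusted p = 0.0522).

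For Gpi1, a difference between the ICH slides passed the test under some normalizations and not others. Subtracting the 75th percentile gave 0.23 ± 0.15 SE for slide 2 against slide 1 (limma adjusted p = 0.287). After quantile normalization, which gives all arrays the same distribution of signals, the difference was 0.80 ± 0.14 SE (limma adjusted p = 0.000985, 22.9% of all probes passing). The ICH arrays of slide 2 then stood 0.82 ± 0.11 SE above sham (limma adjusted p = 6.56e-05), and BYHWD differed from them by -0.59 ± 0.11 SE (limma adjusted p = 0.00143), where 37.0% and 32.2% of all probes passed. Those of slide 1 differed from sham by 0.01 ± 0.13 SE. Pooled over slides, ICH against sham was 0.49 ± 0.17 SE after quantile normalization and did not pass (limma adjusted p = 0.0823). The same change of normalization moved Pex11a between the ICH slides from -0.85 to -0.68, with a limma adjusted p of 0.00118. For Acaa2 the difference between the ICH slides moved from 0.18 to 0.43 and did not pass under either (limma adjusted p = 0.252 after quantile normalization).

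**Figure D3:**
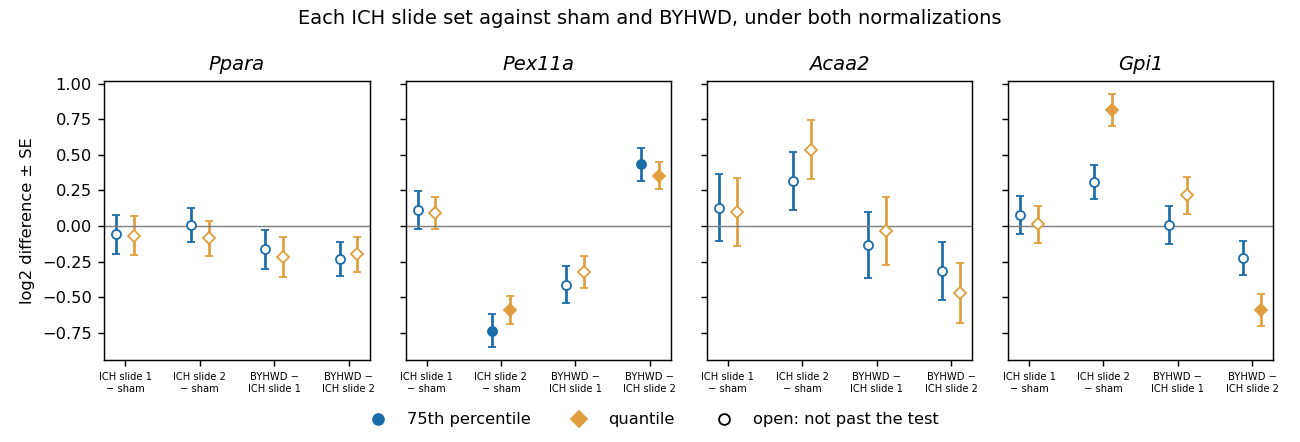
Log2 difference ± SE (vertical axis) of the ICH arrays of each slide from sham, and of BYHWD from the ICH arrays of each slide, after 75th percentile scaling (circles) or quantile normalization (diamonds). Filled points have an adjusted p under 0.05: Pex11a for slide 2 under both normalizations, and Gpi1 for slide 2 under quantile normalization alone.

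The rank of a probe within its own array does not depend on scaling between arrays. Gpi1 exceeded 98.21%, 98.24% and 98.52% of the tested probes on the 3 ICH arrays of slide 2. On the other arrays it exceeded 97.25% to 97.75% in sham, 97.32% and 97.49% on the ICH arrays of slide 1 and 97.52% to 97.79% in BYHWD. The 3 ICH arrays of slide 2 thus ranked Gpi1 above all 12 others, as they did for 7.79% of all tested probes. Pex11a exceeded 85.31% to 86.55% of the probes on slide 2, against 88.28% to 89.27% in sham, 89.01% and 89.19% on the ICH arrays of slide 1 and 87.21% to 88.31% in BYHWD. It ranked below all 12 others on the ICH arrays of slide 2, as did 10.8% of all tested probes. Ppara and Acaa2 overlapped: Ppara exceeded 42.03% to 46.87% in BYHWD and 44.18% to 51.25% on the ICH arrays of slide 2, and Acaa2 exceeded 88.72% to 91.66% on the ICH arrays of slide 2 and 86.87% to 90.52% in sham.

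**Figure D4:**
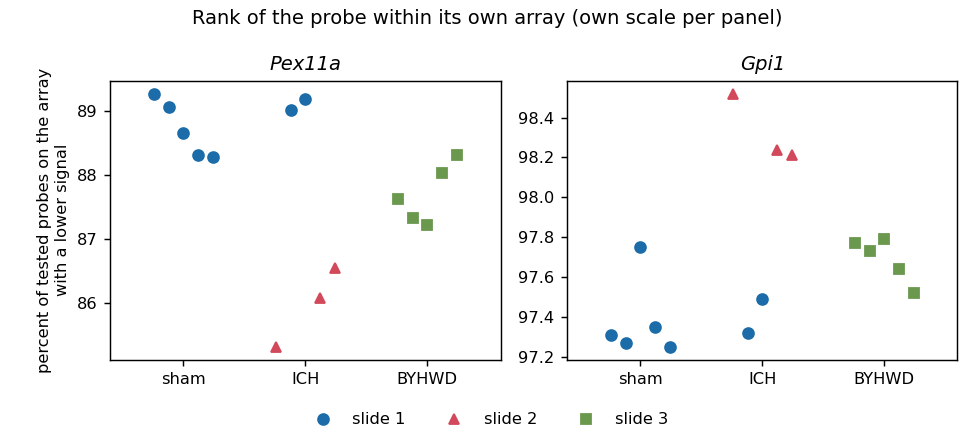
Percent of the tested probes on the same array with a lower signal (vertical axis, own scale per panel) for Pex11a and Gpi1, by group, with colour and shape for the slide. The 3 ICH arrays of slide 2 lie below all others for Pex11a, at 85.31 to 86.55, and above all others for Gpi1, at 98.21 to 98.52.

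No link of promoter sequence to the slides was tested. Stretches before the start sites are shown for Pex11a and Gpi1 alone. Both are on the minus strand of chromosome 7, from RefSeq (GRCm38.p6), each with the 250 bases before the start. The Pex11a stretch is chr7:79743132-79743381 and that of Gpi1 is chr7:34230337-34230586. Capitals mark matches to the GC box GGGCGG on either strand.
Pex11a: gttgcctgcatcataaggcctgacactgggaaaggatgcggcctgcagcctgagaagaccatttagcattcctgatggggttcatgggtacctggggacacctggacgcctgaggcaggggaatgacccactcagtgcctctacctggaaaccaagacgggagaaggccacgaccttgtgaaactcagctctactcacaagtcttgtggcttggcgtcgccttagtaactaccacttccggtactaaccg
Gpi1: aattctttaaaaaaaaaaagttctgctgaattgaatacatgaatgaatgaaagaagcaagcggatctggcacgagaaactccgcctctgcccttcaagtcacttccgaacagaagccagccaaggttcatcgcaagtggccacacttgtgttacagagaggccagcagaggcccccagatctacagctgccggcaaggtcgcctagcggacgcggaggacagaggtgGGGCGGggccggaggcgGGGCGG
The Gpi1 stretch holds 2 GC boxes and that of Pex11a holds 0, while 32.7% of 32851 RefSeq promoters of the same length hold at least 1. The half-site of nuclear receptors, AGGTCA, was found in neither stretch on either strand (14.0% of all promoters hold it), nor was its direct repeat AGGTCANAGGTCA (0.0335%) or the E-box CACGTG (6.02%). These are matches of letters in 250 bases and say nothing of binding.

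Of 5 lists of energy genes (108 genes: fatty acid oxidation and PPAR targets, peroxisome, glycolysis, respiration, and transport), Apoe was the other gene reported here with a tested probe of its own. Apoe, the main lipid carrier of the brain, which astrocytes make, rose in ICH against sham (log2 difference 0.94 ± 0.17 SE, limma adjusted p = 0.00825) and did not differ past the test between BYHWD and ICH (-0.02 ± 0.17 SE, limma adjusted p = 0.961). It also rose in BYHWD against sham (0.93 ± 0.17 SE, limma adjusted p = 0.00275). In each of these 3 comparisons 0 of the 4 members passed, in either direction. Of the markers of other cells, Apoe was the measured one of 5 for astrocytes and Mbp, of myelin, the one of 4 for oligodendrocytes. Mbp differed by 0.19 ± 0.11 SE in ICH against sham (limma adjusted p = 0.272). Between the ICH slides, Apoe differed by -0.31 ± 0.23 SE and Mbp by -0.14 ± 0.16 SE, neither past the test. Mzb1, the measured one of 3 markers for B and plasma cells, rose in ICH against sham (0.70 ± 0.16 SE, limma adjusted p = 0.0266) and was higher on slide 2 than on slide 1 within ICH (0.67 ± 0.15 SE, limma adjusted p = 0.00546). Il2, the measured one of 2 for T cells, did likewise, by 1.16 ± 0.31 SE (limma adjusted p = 0.0431) and 1.66 ± 0.16 SE (limma adjusted p = 1.06e-05). Of all tested probes, 5.03% passed in ICH against sham and 22.0% between the ICH slides. Pex11a also passed between the ICH slides, in the opposite direction (-0.85), and Gpi1 did not pass. The rise of Mzb1 and Il2 against sham pools both ICH slides, and values for slide 1 alone are not given here. In all, 4 of the 37 marker genes of 10 lists had a named probe, and the part of cell makeup in the levels of the 4 genes was not tested.

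Gapdh and Pgk1, glycolytic enzymes downstream of Gpi1, were measured by control probes with 10 spots each and were compared with exact permutation tests. At the 3' end, the mean Gapdh level (± SD, n = 5 each) was 6.06 ± 0.16 for sham, 6.25 ± 0.14 for ICH and 5.97 ± 0.14 for BYHWD. That of Pgk1 was 5.43 ± 0.30 for sham, 5.49 ± 0.22 for ICH and 5.29 ± 0.05 for BYHWD. At this end both had their highest mean in ICH and their lowest in BYHWD, with overlapping groups. At the 5' end both had their highest mean in sham: ICH against sham was -0.18 for Gapdh (exact permutation p = 0.0714) and -0.10 for Pgk1 (exact permutation p = 0.706). For Pgk1 the 5' sham mean leaned on sham 3, at -1.428. The other sham arrays ran from -2.325 to -2.166, beside an ICH mean of -2.18. At the 3' end, BYHWD against ICH gave -0.28 for Gapdh (2-sided exact permutation p = 0.0159, adjusted p = 0.0762 over 24 tests of these probes) and -0.20 for Pgk1 (exact permutation p = 0.0873, adjusted p = 0.171). The 5' probes gave -0.16 for Gapdh (exact permutation p = 0.0635, adjusted p = 0.169) and -0.41 for Pgk1 (exact permutation p = 0.0159, adjusted p = 0.0762). Within ICH, slide 2 lay above slide 1 by 0.20 for Gapdh and 0.33 for Pgk1 at the 3' end, with an exact permutation p of 0.200 for each. At the 5' end the Gapdh difference between the slides was -0.10, of the opposite sign, with an exact permutation p of 0.1. The direction for Gapdh between the ICH slides thus differed between its 2 probes.

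The genes whose levels followed each member most closely over the 15 arrays were sought among the 43 other named genes, by Pearson's r. These values describe the arrays and carry no test, since the arrays share slides, signal scale and group. For Ppara they were Prdx2, a peroxiredoxin gene (r = 0.67), Taf1a (0.65) and the nuclear pore gene Nup50 (0.65). With the mean of each group and slide removed these became 0.57, 0.59 and 0.42. After quantile normalization they were 0.36, 0.55 and 0.60 over the 15 arrays, and Prdx2 ranked 11 of the 43 genes. For Pex11a they were the olfactory receptor gene Olfr166 (r = 0.77), Anxa8, an annexin gene (0.75), and the homeobox gene Lhx1 (0.74), which became 0.20, 0.59 and 0.38. The Pex11a values thus fell once the means of group and slide were removed together, least for Anxa8.

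For Acaa2 the closest genes were Tm9sf1 (r = 0.78), Gamt, a gene of creatine synthesis (0.62), and the histocompatibility gene H2-Q7 (0.54), which became 0.74, 0.56 and 0.63 within group and slide. For Gpi1 they were Tm9sf1 again (r = 0.79), the cytokine gene Il2 (0.72) and Carhsp1 (0.70), which became 0.63, 0.49 and 0.44. Tm9sf1, which encodes a membrane protein of the endosomal system, was thus the closest gene to both metabolic enzymes. Acaa2 and Gpi1 themselves had an r of 0.38, and 0.16 within group and slide. Pex11a and Gpi1 had an r of -0.49, which became 0.29 within group and slide and, after quantile normalization, -0.92 over the 15 arrays and -0.53 within group and slide. Ppara had an r of 0.09 with Pex11a, its known target gene in liver, 0.42 with Acaa2 and 0.43 with Gpi1, and 0.20, 0.42 and 0.64 within group and slide. After quantile normalization the values over the 15 arrays were 0.27, 0.24 and 0.01.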

How the data were processed

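Total RNA had been extracted with TRIzol and converted to Cy3-labelled cRNA, per the labels' protocols. The authors deposited scanner output for each array, with intensity values per spot. Its software was Agilent Feature Extraction, version 11.0.1.1 (per the file headers), and the processed signal used here is background-corrected within an array and not scaled between arrays. A deposited table of log2 values, normalized in a way not given in the sources used here, holds none of the 4 probes. It served as an alternative for the counts over all probes alone.

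Each array has 62976 spots, 1439 of them controls, and 0 were saturated. Outlying spots (25 to 93 per array) were dropped. The log2 signal minus the array's 75th percentile over non-control spots was averaged per probe. Left out were 132 probes that name no gene, 169 with a missing value, and those well above background on fewer than 5 arrays, which left 51669. Differences were fitted over all 15 arrays with limma 3.58.1 (R 4.3.3, lmFit and eBayes), 2-sided, with Benjamini-Hochberg adjustment over all tested probes. This step was tested on simulated data with independent noise and no slide effect, which cannot show its error rate where slides differ. The normexp alternatives used the median spot and background signals in place of the planned mean signals. Slides were read from scan identifiers. Accessions were matched to RefSeq (GRCm38.p6) without versions for 46 of 50 probes, of which 45 were tested. Gene coordinates are not printed, since the scanner files name another build; the promoter stretches carry RefSeq's own.

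Members, lists and alternatives were chosen with earlier results of these data known. The genes named are the 4 members, the 3 named genes closest to each by Pearson's r, and genes of the energy and marker lists, of which 1 is not reported here.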

Additional observations from a re-analysis of the deposited data

Results flagged for a closer look

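Among 24 sets of 5 values, 2 had a single array standing apart, and chance alone picks out about 1 set in 20. The sets were each member, and the 3' level and the 3' minus 5' difference of Gapdh and Pgk1, by group. The 5' levels of these control probes were not checked in this way. Ppara on BYHWD 2 was at -2.11, while the remaining BYHWD arrays ran from -1.94 to -1.88. Sham 3 was at 5.94 for the 3' control probe of Pgk1, while the remaining sham arrays ran from 5.16 to 5.36.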

How the results depend on the processing

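None of the alternatives brought a call for Ppara or Acaa2 by limma, and Pex11a between the ICH slides kept its direction and its call in the limma fits under all normalizations and with any ICH array left out. Several small differences turned sign or changed in size. Ppara in ICH against sham was 0.13 with normexp and the 75th percentile, 0.0080 with the ICH arrays of slide 2, and -0.079 to 0.024 with 1 array left out. In BYHWD against sham it was -0.020 with normexp and the 75th percentile and -0.17 with normexp and quantile normalization. Between the ICH slides Ppara was 0.24 with normexp and the 75th percentile, -0.019 after quantile normalization and -0.041 to 0.17 with 1 array left out. Acaa2 in BYHWD against sham was 0.064 after quantile normalization, 0.070 with normexp before it, and -0.075 to 0.13 with 1 array left out; between the ICH slides it was -0.054 to 0.42 with 1 left out. Gpi1 in BYHWD against ICH was 0.0056 against slide 1 and 0.22 against it after quantile normalization, and -0.59 against slide 2 after quantile normalization, a call. Gpi1 also became a call against sham for slide 2 after quantile normalization (0.82) and between the ICH slides after quantile normalization without (0.80) or with normexp (0.82).

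Pex11a in ICH against sham was 0.11 with the slide as a fixed block or with slide 1 alone, 0.089 with slide 1 after quantile normalization, -0.73 with slide 2 and -0.59 with slide 2 after quantile normalization, the last pair calls. It was -0.53 to -0.28 with 1 array left out. In BYHWD against ICH it was -0.41 against slide 1 and -0.32 after quantile normalization, 0.43 and 0.35 against slide 2 (both calls), and -0.020 (without ICH 1) to 0.23 with 1 array left out. In BYHWD against sham its -0.30 passed with each ICH slide given its own mean and by the unadjusted exact permutation test, and was -0.057 with the slide as a random block (limma adjusted p = 0.969). The -0.20 of Ppara in BYHWD against ICH also passed that exact test. Between the ICH slides the -0.85 of Pex11a could not pass the exact permutation test. The cause of these changes was not tested.

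The count of all probes past the test in ICH against sham (2597) was 19435 with normexp and the 75th percentile and 617 with those groups alone. It was 360 with the slide as a random block and 175 with it as a fixed block or with slide 1 alone. With slide 2 it was 18869, and with 1 array left out 440 to 10434. In the deposited table, where 34099 probes were tested in place of 51669, it was 163. Leaving out a sham array gave 837 to 1234, leaving out ICH 1, 4 or 5 gave 440 to 777, and leaving out ICH 2 or ICH 3 gave 10434 and 9876. In BYHWD against ICH (3166) it was 1313 with normexp and the 75th percentile, 5112 with normexp and quantile normalization, 1710 with those groups alone, 1 with the random block, 14332 with slide 2 and 898 to 6323 with 1 array left out. In BYHWD against sham (8930) it was 20290 with normexp and the 75th percentile, 3 with the random block and 13526 with each ICH slide given its own mean. It was 4955 of the 34099 probes in the deposited table and 5493 to 9511 with 1 array left out. Between the ICH slides (11380) it was 27426 with normexp and the 75th percentile and 5695 to 9510 with 1 array left out. Normexp with the 75th percentile moved the median of all probes by 0.128 in ICH against sham, 0.141 in BYHWD against sham and 0.167 between the ICH slides.

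Same-numbered arrays did not deviate together (r from -0.341 to 0.0905, own number best for 0 of 5 arrays in each pair of groups), so no pairing by number was seen. The deviations were taken from group means and hold the slide difference within ICH, so a pairing could go unseen. With the replicate block the counts were 1159, 596 and 6100 in the 3 comparisons, and 0 of the 4 members passed. The normexp fits on mean signals were not run. What 5 arrays a group can resolve is shown by the intervals of the differences. All 4 probes were well above background, and Ppara was nearest to it, at 72 to 170 units.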
